A study of Mus musculus with 38 samples.

Results

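The repressive islands of mouse chromosomes 18 and 19 are the stretches of these chromosomes over which H3K27me3 or H3K9me3, histone marks of silent chromatin, was called enriched in the liver of male or female mice. Every island of the 4 lists (H3K27me3 and H3K9me3, each in males and in females) on chromosomes 18 and 19 was taken, which gave 2682 of the 68055 repressive islands on the 19 autosomes. On chromosome 18 the H3K27me3 lists held 574 male and 374 female islands, and the H3K9me3 lists 270 male and 206 female islands. Chromosome 19 held 464 male and 445 female H3K27me3 islands, and 206 male and 143 female H3K9me3 islands. The 2 chromosomes were chosen by the length these same lists cover in males and in females, so the coverage is described below with no test, and the deposited ratios, which come from the same libraries, are not independent of that choice.

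Chromatin immunoprecipitation and sequencing (ChIP-seq) had been carried out for 6 histone marks on liver from CD-1 mice of both sexes, an outbred strain, at 8 weeks of age, with no other treatment named in the labels. H3K27me3 was mapped in 3 male and 3 female libraries and H3K9me3 in 2 male and 2 female libraries. The deposited files of all libraries of a mark and sex were identical, so each mark and sex was 1 pooled list, there was no spread between animals, and the comparisons below have no replicate check. Liver holds several cell types, and a larger share of cells that carry a mark cannot be told apart from more of the mark per cell.

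H3K27me3 is set by the Polycomb complex PRC2, whose catalytic subunit is EZH2, and spreads over silent developmental genes and broad gene-poor stretches. H3K9me3 is set by enzymes such as SETDB1 and SUV39H1, is read by HP1 proteins and marks heterochromatin, including silenced repeats and some gene clusters. Both marks form wide, shallow domains, which is why they are called as islands of merged windows and not as sharp peaks. In mouse liver, sex differences in gene expression follow the male and female patterns of growth hormone release, and several sex-dependent genes lie in clusters of related drug-metabolising enzymes and transporters.

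Gene starts could be placed on the mm9 coordinates of the islands on chromosome 19 for 441 of 863 genes, by finding whole 35-base reads of a control IgG library inside RefSeq promoter sequences. The promoters of 3 of these genes are shown because each stands for a kind of H3K27me3 island described below. Tlx1, a homeobox transcription factor of development, started at 45225206 inside islands of both lists. Slc22a26, an organic anion transporter, and Cyp2c69, a cytochrome P450, started at 7877158 and 39961260, inside islands of the male list and outside those of the female list. Each sequence is 300 bases around the start, read 5′ to 3′ on the gene's strand, from RefSeq (GRCm38.p6, chr19:45150465-45150764 plus strand, chr19:7802618-7802917 minus strand and chr19:39886720-39887019 minus strand). Capitals mark the bases matched by IgG reads, which fixed the mm9 place.
Tlx1: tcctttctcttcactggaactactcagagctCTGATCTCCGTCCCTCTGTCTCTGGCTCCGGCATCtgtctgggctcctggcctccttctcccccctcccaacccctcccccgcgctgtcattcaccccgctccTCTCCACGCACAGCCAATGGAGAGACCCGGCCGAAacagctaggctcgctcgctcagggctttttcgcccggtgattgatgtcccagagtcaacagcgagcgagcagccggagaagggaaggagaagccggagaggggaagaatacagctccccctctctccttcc
Slc22a26: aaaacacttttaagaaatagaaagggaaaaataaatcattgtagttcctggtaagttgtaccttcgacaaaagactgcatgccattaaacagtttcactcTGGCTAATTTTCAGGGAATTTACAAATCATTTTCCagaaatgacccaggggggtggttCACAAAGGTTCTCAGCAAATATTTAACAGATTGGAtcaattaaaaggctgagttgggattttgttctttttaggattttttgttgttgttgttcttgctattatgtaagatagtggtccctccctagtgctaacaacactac
Cyp2c69: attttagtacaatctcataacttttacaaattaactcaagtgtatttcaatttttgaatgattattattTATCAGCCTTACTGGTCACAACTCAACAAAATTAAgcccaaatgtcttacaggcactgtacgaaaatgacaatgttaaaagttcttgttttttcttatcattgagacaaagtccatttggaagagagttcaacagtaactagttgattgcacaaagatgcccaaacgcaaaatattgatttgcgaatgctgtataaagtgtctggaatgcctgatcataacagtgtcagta
The Tlx1 promoter held 16 CG dinucleotides at a GC content of 61.7%, against 1 at 35.7% for Slc22a26 and 3 at 32.3% for Cyp2c69. Over the 496 placed promoters of chromosome 19 the medians were 9 CG dinucleotides and 54.0% GC. Promoters whose start was covered by the male H3K27me3 list alone were poorer in CG, with a median of 2 over 21 promoters. The median was 15 over the 23 covered by the female list alone, 7 over the 62 covered by both lists and 10 over the 390 covered by neither.

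On chromosome 18 the male lists covered more sequence than the female lists for both marks, and on chromosome 19 they did so clearly for H3K9me3 alone. H3K27me3 islands covered 14.5 Mb of chromosome 18 in the male list and 9.05 Mb in the female list, a ratio of 1.60 (log2 0.68). No other autosome had a ratio as high. On chromosome 19 H3K27me3 covered 12.9 Mb in the male list and 12.4 Mb in the female list, a ratio of 1.04 (log2 0.06), which ranked 6 of 19. Over the other 17 autosomes the male list covered 538 Mb and the female list 558 Mb (log2 -0.05), and single chromosomes lay between -0.13 and 0.28, the highest being chromosome 15.

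H3K9me3 islands covered 4.42 Mb of chromosome 18 in the male list and 2.41 Mb in the female list, a ratio of 1.83 (log2 0.87). On chromosome 19 they covered 3.09 Mb in the male list and 1.49 Mb in the female list, a ratio of 2.08 (log2 1.05). These were the highest ratios of the 19 autosomes for this mark. With islands at or above the median fold over control alone, that of chromosome 19 was smaller (log2 0.48). The other 17 autosomes together ran the other way, with 169 Mb in the male list and 219 Mb in the female list (log2 -0.38), and lay singly between -0.85 and 0.19.

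Coverage was low on chromosome 18 for both marks and on chromosome 19 for H3K9me3, and lowest in the female lists. H3K27me3 covered 16% of chromosome 18 in the male list and 9.97% in the female list, whereas the other 17 autosomes lay between 17.2% and 28.8% in the male list and between 16.4% and 30.9% in the female list. Both values for chromosome 18 were thus below the range of the other autosomes. On chromosome 19 coverage by H3K27me3, at 21.0% in the male list and 20.2% in the female list, was inside those ranges. H3K9me3 covered 4.87% of chromosome 18 and 5.04% of chromosome 19 in the male list, near the low end of the other autosomes (4.48% to 10.7%). In the female list it covered 2.66% of chromosome 18 and 2.43% of chromosome 19, below the lowest of the others, which had 4.61%.

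**Figure D1:**
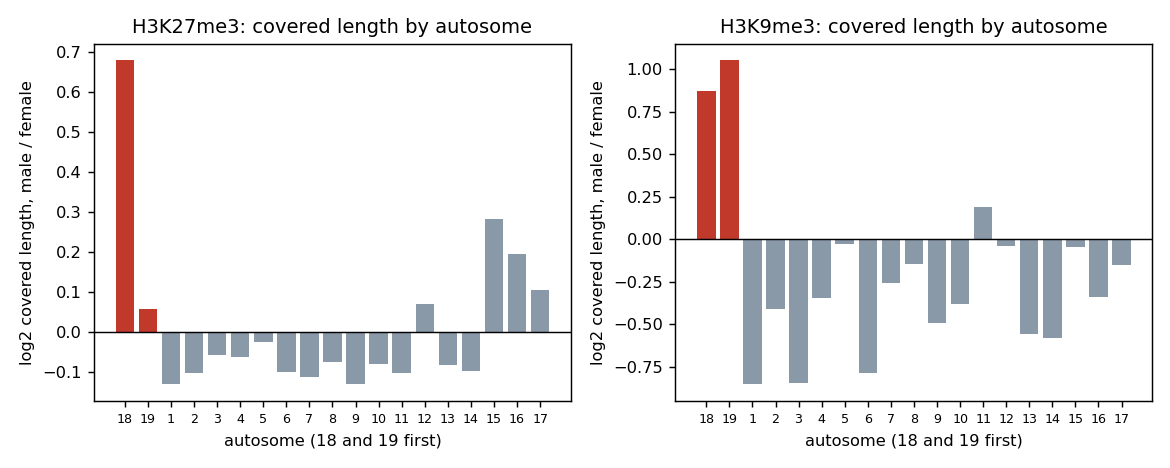
Log2 ratio of the length covered by male islands over the length covered by female islands for each autosome, for H3K27me3 and H3K9me3, with chromosomes 18 and 19 drawn first in red and the other 17 in grey. Chromosome 18 stands at 0.68 for H3K27me3, and both chromosomes stand above all others for H3K9me3, at 0.87 and 1.05.

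The other 4 marks had length ratios inside the ranges of the other autosomes, except H3K4me3 on chromosome 18. For H3K4me3 and H3K27ac the male list was ahead in most bins. H3K36me3, a mark of transcribed gene bodies, had log2 ratios of -0.03 on chromosome 18 and -0.05 on chromosome 19, within the range of the other autosomes (-0.06 to 0.01). H3K4me1, found at enhancers, had -0.14 and -0.23, inside -0.35 to -0.09, and H3K27ac, found at active promoters and enhancers, had 0.21 and 0.17, inside 0.13 to 0.25. H3K4me3, a mark of active promoters, had 0.02 on chromosome 19, inside -0.04 to 0.04, and 0.08 on chromosome 18, above that range but far smaller than the repressive ratios of that chromosome. Counted in 1 Mb bins, the male H3K4me3 list was ahead in 54 and the female list in 20 bins of chromosome 18 (73.0% male), and in 33 and 19 bins of chromosome 19 (63.5% male). Both shares were above the range of the other autosomes, 49.1% to 60.5%. The male shares of bins for H3K4me1 and H3K27ac lay inside the ranges of the other autosomes, 24.6% to 52.7% and 72.8% to 90.9%. A male lead over bins was thus usual for H3K27ac on all autosomes. The share for H3K36me3 was inside the range on chromosome 18, while on chromosome 19 it was 32%, under the lowest of the others, 34.7%.

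Along chromosome 18 the male H3K27me3 list covered more almost everywhere. In 1 Mb bins, the male list was ahead in 73 and the female list in 7 of the 80 bins with any island (91.2% male). The other 17 autosomes had 935 bins with the male list ahead and 1227 with the female list ahead (43.2% male), with single chromosomes between 30.0% and 69.5%. The median difference over the 88 bins from 3 Mb on was 51.4 kb in favour of the male list, against -7.2 kb over the bins of the other autosomes. The male list led by over 50 kb in 44 of the 88 bins and the female list in 0, while on the other autosomes 15.5% of bins exceeded 50 kb in the male direction and 24.8% in the female direction. It took the 17 bins with the largest male lead to make up 50% of the net difference.

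The lead was largest relative to coverage in the proximal part of chromosome 18. Between 3 and 33 Mb the male list covered 2.25 Mb and the female list 0.775 Mb, a ratio of 2.91, and the male list was ahead in 25 bins and the female list in 0. From 33 to 62 Mb the male list covered 5.39 Mb and the female list 3.85 Mb (ratio 1.40), and from 62 to 91 Mb the male list covered 6.85 Mb and the female list 4.43 Mb (ratio 1.55). The longest run with the male list ahead was 16 bins, from 19 to 35 Mb, with 2.21 Mb in the male and 0.941 Mb in the female list. The male list alone had islands in 16 bins, and 0 bins had islands of the female list alone.

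The bin with the largest lead, 81 to 82 Mb, had 553 kb of H3K27me3 in the male list and 349 kb in the female list. The bin at 85 to 86 Mb had 291 kb in the male list and 93.2 kb in the female list, and that at 62 to 63 Mb had 418 kb and 222 kb in male and female lists. In the few bins with the female list ahead the lead was small. The largest, at 61 to 62 Mb, had 263 kb in the male and 307 kb in the female list, followed by 38 to 39 Mb with 265 kb in the male and 304 kb in the female list and 35 to 36 Mb with 28.4 kb in the male and 64.4 kb in the female list. The longest H3K27me3 islands of the chromosome lay at the same place in both lists, from 36210800 to 36394799 (184 kb) in the male list and from 36280800 to 36411999 (131 kb) in the female list. Bins rich in one list were rich in the other, with a Pearson r of 0.91 over the 88 bins, which share libraries and are not independent.

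On chromosome 19 the H3K27me3 lists differed in parts. The male list was ahead in 32 and the female list in 27 of 59 bins (54.2% male), and the median difference was 5.2 kb. This small lead was not stable, since with islands at or above the median fold over control alone the log2 ratio turned to -0.10, and in bins of 500 kb the male share turned to 47.7%. The male list led by over 50 kb in 12 bins and the female list in 5. A single bin, 27 to 28 Mb, with 264 kb in the male list and 49.6 kb in the female list, was 43.1% of the net difference of the chromosome. That net was only 0.498 Mb, left after leads of both lists cancelled, so the bin was a smaller part of all male leads. Placed gene starts from 27 to 28 Mb were Vldlr, a receptor for very-low-density lipoprotein, the ribosome biogenesis factor Pum3 and 4 genes known by clone or model names. The next bins were 7 to 8 Mb, with 245 kb in the male and 112 kb in the female list, and 39 to 40 Mb, with 122 kb in the male and 0 kb in the female list. The longest run of bins with the male list ahead was 5, from 10 to 15 Mb, with 0.873 Mb in the male and 0.691 Mb in the female list.

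The female H3K27me3 list was ahead by more than 100 kb in places on chromosome 19, which did not occur on chromosome 18. At 48 to 49 Mb, where Sorcs3, a sorting receptor of neurons, starts, there were 164 kb in the male list and 277 kb in the female list. At 54 to 55 Mb the male list covered 483 kb and the female list 592 kb. At 6 to 7 Mb, a stretch with many gene starts, the lists held 306 kb in males and 378 kb in females. A run of 5 bins from 45 to 50 Mb had the female list ahead throughout, with 0.955 Mb in the male and 1.21 Mb in the female list. The longest island of the chromosome was also longer in females, from 44698400 to 44930799 (232 kb) in the male list and from 44645600 to 44935999 (290 kb) in the female list. By distance along the chromosome, the ratio of male over female length was 1.1 from 3 to 23 Mb, 1.13 from 23 to 43 Mb and 0.941 from 43 to 62 Mb.

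**Figure D2:**
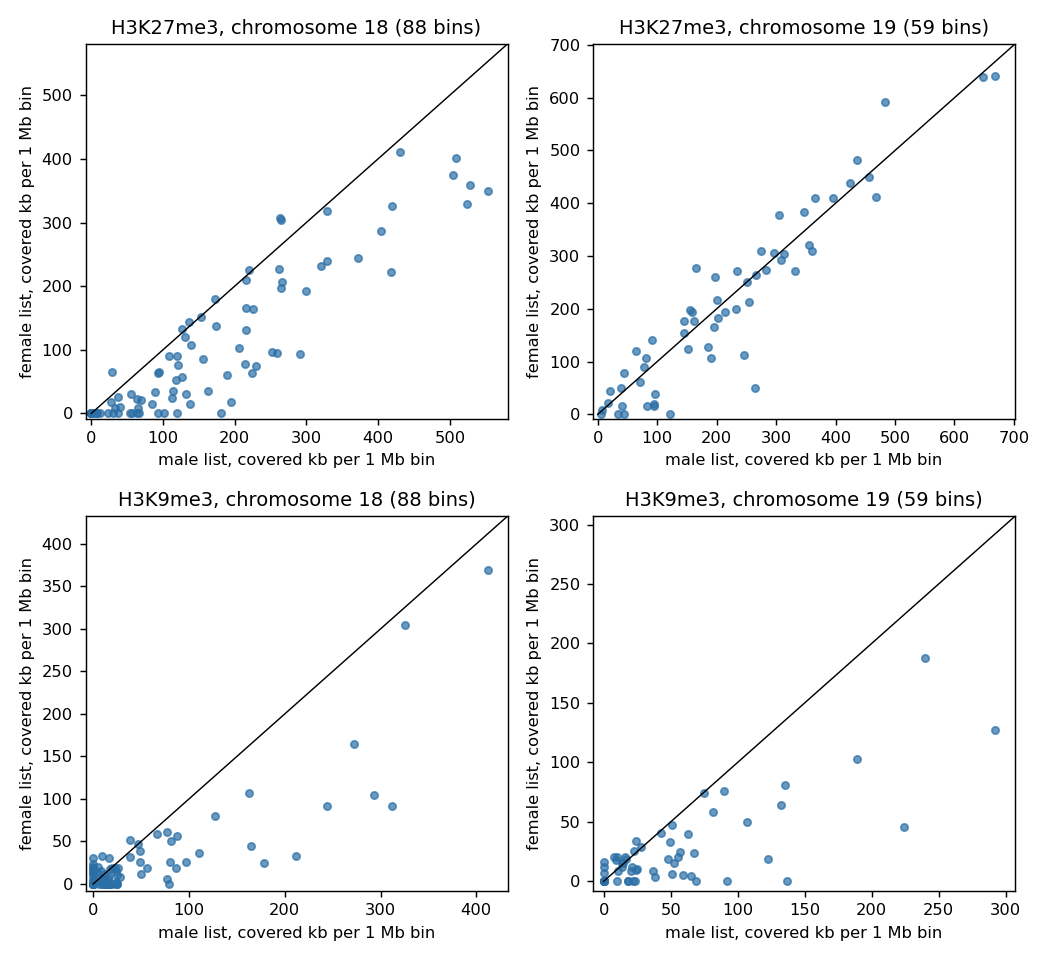
Length covered per 1 Mb bin by the male list (x axis, kb) and the female list (y axis, kb) of each mark on chromosomes 18 and 19, 1 point per bin from 3 Mb on, with a line where both are equal. For H3K27me3 on chromosome 18 nearly all points lie on the male side of the line (73 against 7), while on chromosome 19 they lie on both sides (32 against 27).

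H3K9me3 favoured the male list in most bins of both chromosomes, though less evenly in some parts, from a low level of coverage. On chromosome 18 the male list was ahead in 55 bins and the female list in 17 (76.4% male), and on chromosome 19 in 39 and 13 (75% male). The other 17 autosomes had 675 bins with the male list ahead and 1536 with the female list ahead (30.5% male), and 50.4% was the highest share of any of them. The median difference was 7.6 kb on chromosome 18 and 15.2 kb on chromosome 19, against -20.0 kb elsewhere. No bin of either chromosome had the female list ahead by over 50 kb, whereas 29.6% of bins on the other autosomes did.

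On chromosome 18 the H3K9me3 lead was spread unevenly. It was small from 3 to 33 Mb, where H3K27me3 had its largest ratio, with 0.308 Mb in the male and 0.256 Mb in the female list (ratio 1.20). The male list was ahead there in 13 bins and the female list in 9. From 33 to 62 Mb there were 1.46 Mb in the male and 0.757 Mb in the female list (ratio 1.93), and from 62 to 91 Mb there were 2.66 Mb in the male and 1.40 Mb in the female list (ratio 1.90). The bins with the largest lead were 83 to 84 Mb (312 kb male, 91.6 kb female), 81 to 82 Mb (293 kb male, 104 kb female) and 61 to 62 Mb (212 kb male, 32.8 kb female). Of these, 81 to 82 Mb was also the leading H3K27me3 bin, while 61 to 62 Mb was the bin where the female H3K27me3 list led most. The longest run with the male list ahead was 8 bins, from 80 to 88 Mb. The longest male H3K9me3 island, from 69581200 to 69740799 (160 kb), was covered to 84.5% by female islands.

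On chromosome 19 the H3K9me3 lead ran through the distal part. From 40 to 62 Mb all 22 bins had the male list ahead, with 1.96 Mb in the male and 1.02 Mb in the female list. The ratio was highest from 3 to 23 Mb, at 3.11, with 0.728 Mb in the male and 0.234 Mb in the female list. The male list was ahead there in 10 bins and the female list in 6. From 23 to 43 Mb there were 0.624 Mb in the male and 0.328 Mb in the female list (ratio 1.90). In that part the male list was ahead in 10 bins and the female list in 7, with a female run of 4 bins from 28 to 32 Mb. The bin at 6 to 7 Mb had 224 kb in the male and 45.6 kb in the female list, opposite to H3K27me3 in the same bin. At 44 to 45 Mb there were 292 kb in the male and 127 kb in the female list. At 10 to 11 Mb, where Fads2, a fatty acid desaturase, Fth1, the ferritin heavy chain, and Tkfc start, there were 137 kb in the male and 0 kb in the female list. The bins with the female list ahead differed little, the largest being 9 to 10 Mb with 0 kb in the male and 16 kb in the female list. Across bins the difference in H3K9me3 and the difference in H3K27me3 had a Pearson r of 0.24 over the 88 bins of chromosome 18 and -0.21 over the 59 of chromosome 19, with both marks measured in pooled lists of the same sexes.

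**Figure D3:**
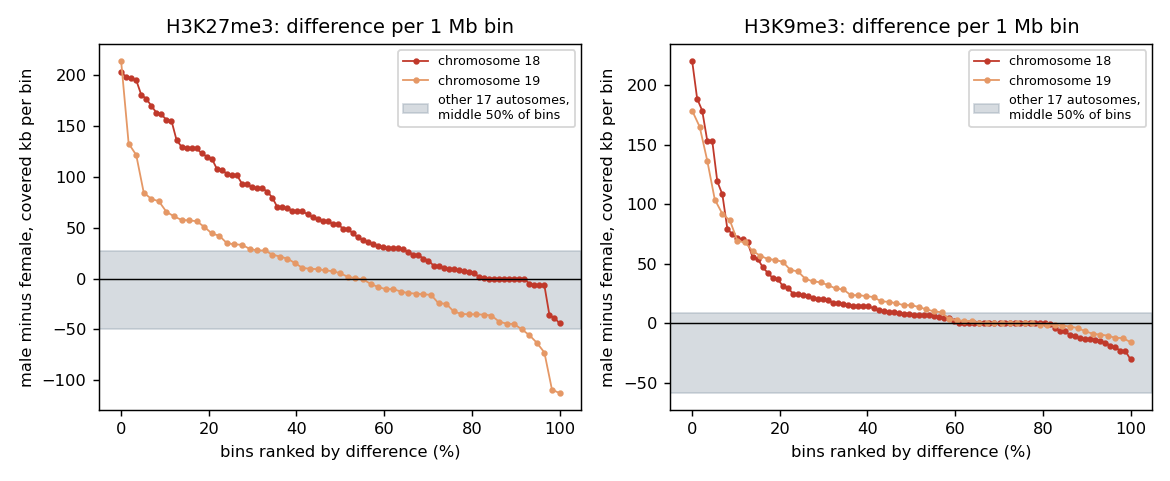
Male minus female covered length per 1 Mb bin (kb), with the bins of each chromosome ranked from the largest male lead to the largest female lead, for H3K27me3 and H3K9me3, and a grey band for the middle 50% of bins on the other 17 autosomes. For H3K27me3 the chromosome 18 curve stays above 0 for most ranks (median 51.4 kb) while that of chromosome 19 crosses 0 near the middle (median 5.2 kb), and for H3K9me3 neither chromosome goes below -30.4 kb.

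The lists also differed in which islands had a partner, that is an island for that mark in the opposite sex with at least 1 bp in common. On chromosome 18, 247 of 574 male H3K27me3 islands had none (43%, exact 95% interval 38.9% to 47.2%), against 47 of 374 female islands (12.6%, 9.38% to 16.4%). On the other 17 autosomes 18.7% of male and 21.4% of female islands had none. Chromosome 19 was nearer to these, with 116 of 464 male (25%) and 88 of 445 female islands (19.8%). By length, 47.3% of the male H3K27me3 sequence on chromosome 18 lay in female islands and 75.7% of the female sequence in male islands. On the other autosomes these shares were 74.1% and 71.4%, so it was the share of male sequence found in the female list that was low on chromosome 18. The intervals cover counting error only. Shares with a partner and shares by length depend on how much each list covers, by which the chromosomes were chosen. They are therefore not evidence apart from the covered length.

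For H3K9me3, 154 of 270 male islands on chromosome 18 (57.0%) and 137 of 206 on chromosome 19 (66.5%) had no partner, against 85 of 206 (41.3%) and 70 of 143 female islands (49.0%). Elsewhere the order was the opposite, with 38.0% of male and 60.6% of female islands alone. There the female list was also the longer, with 219 Mb against 169 Mb in the male list, and these shares depend on list length too. By length, 29.4% of the male H3K9me3 sequence of chromosome 18 and 21.6% of that of chromosome 19 lay in female islands, while 53.8% and 44.8% of the female sequence lay in male islands.

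Male H3K27me3 islands of chromosome 18 without a partner were narrower and weaker than those with one, but strong ones were among them. The 247 male-only H3K27me3 islands of chromosome 18 had a median width of 18800 bp, 24.4 reads per kb and a median fold over control of 1.37, as the authors give it, against 22800 bp, 27.2 reads per kb and 1.63 for the 327 with a partner. When islands were ranked within their genome-wide list by p-value, 122 of the chromosome 18 islands were in the best quartile, and 15 of them (12.3%) had no partner. Chromosome 19 was close, with 12 of 130 (9.23%), while the other 17 autosomes had 2.5%. In the female list 73 islands of chromosome 18 were in the best quartile, and 0 of them lacked a partner. Taking 3 counts as the limit that a count of 0 allows, that is a share of up to 4.11%. In the female list the share was 3.2% on chromosome 19 and 1.62% on the other 17 autosomes. Shares within the best quartile also depend on how much the opposite list covers, by which the chromosomes were chosen.

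The deficit of female islands on chromosome 18 was present at all strengths. Island densities come from the lists by whose length the chromosomes were chosen, so they describe that difference and are not evidence apart from it. Relative to the other autosomes, the density of H3K27me3 islands on chromosome 18 was 0.66, 0.89, 0.87 and 0.68 in the male list, going from the best to the weakest quartile, and 0.40, 0.59, 0.66 and 0.40 in the female list. On chromosome 19 the densities were close in both lists, with 1.03 for males and 1.01 for females in the best quartile and 0.66 and 0.67 in the weakest. For H3K9me3 the male densities were 0.58 to 0.79 on chromosome 18 and 0.64 to 0.83 on chromosome 19, and the female densities 0.25 to 0.43 and 0.21 to 0.39. In all 4 quartiles of both marks on chromosome 18, and of H3K9me3 on chromosome 19, the female density was the lower.

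**Figure D4:**
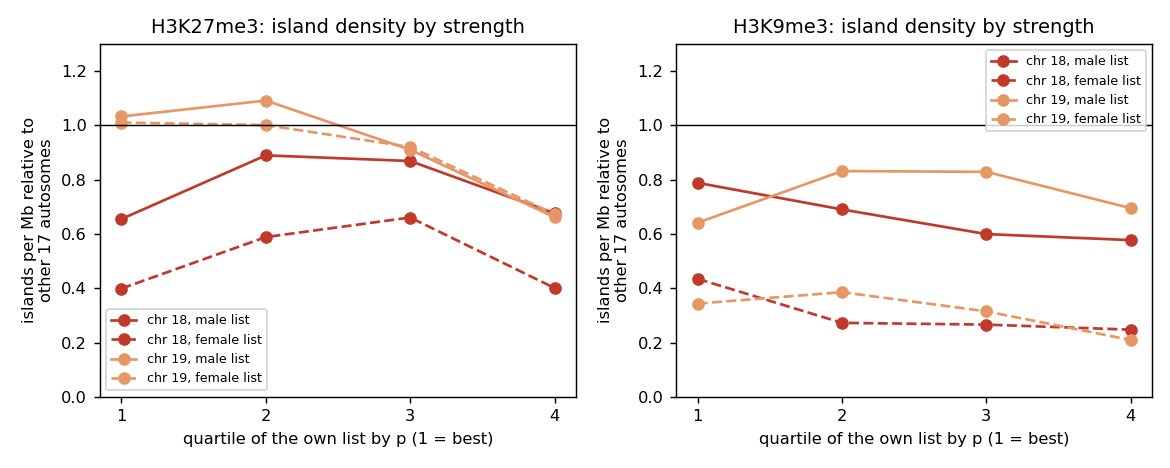
Islands per Mb on chromosomes 18 and 19 relative to the other 17 autosomes (y axis, linear, 1 means equal density), by quartile of the genome-wide list ranked by p-value (x axis, 1 is the best), solid for the male and dashed for the female list. For H3K27me3 the chromosome 18 female line runs between 0.40 and 0.66, under the male line at 0.66 to 0.89, while the lines of chromosome 19 nearly coincide.

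For each island the authors' deposited table gives male over female signal as a log2 ratio, normalised in a way that the sources used here do not give. For H3K27me3 it was shifted towards males even in chromosome 18 islands found in both sexes. In the authors' deposited table, male H3K27me3 islands with a partner had a median log2 ratio of 0.21 on chromosome 18, 0.05 on chromosome 19 and 0.06 on the other autosomes, and 88.1%, 66.4% and 63.7% of them were above 0. Female H3K27me3 islands with a partner had medians of 0.11, -0.03 and -0.02 in the authors' deposited table, and 74.3%, 41.2% and 44.6% were above 0. Male-only H3K27me3 islands had medians of 0.44, 0.40 and 0.36 in the same places in the authors' deposited table, so most male-only islands were below a 2-fold difference. For H3K9me3 the authors' deposited table gave male islands with a partner medians of 0.22, 0.22 and 0.11, and male-only islands 0.64, 0.64 and 0.55. Female H3K9me3 islands with a partner had medians of -0.05, -0.09 and -0.13 in the authors' deposited table, with 43.8%, 35.6% and 30.2% above 0, so they were not on the male side on any of these.

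Few islands reached the limit for a call in the authors' deposited table, which is a log2 ratio of 1 or more in size together with a p under 0.001. Of the male H3K27me3 islands, the authors' deposited table called 8 of 574 on chromosome 18 male (1.39%) and 23 of 464 on chromosome 19 (4.96%), against 0.798% of 20048 over all autosomes. Male calls in the authors' deposited table were also made for 24 of 270 male H3K9me3 islands on chromosome 18 (8.89%) and 22 of 206 on chromosome 19 (10.7%), against 3.42% of 10875 over all autosomes. Female calls in the female H3K27me3 list numbered 0 on chromosome 18 and 1 on chromosome 19 in the authors' deposited table, against 0.041% of 19506 over all autosomes. In the female H3K9me3 list the authors' deposited table had 3 on each chromosome (1.46% and 2.10%), against 2.24% of 17626 over all autosomes. With the ratios of the authors' deposited table centred on islands shared by both lists, male calls were 4 and 22 for H3K27me3 on chromosomes 18 and 19 and 14 and 8 for H3K9me3. These were 0.697% and 4.74% of the male H3K27me3 islands, against 0.573% elsewhere, and 5.19% and 3.88% of the male H3K9me3 islands, against 1.82% elsewhere, so the H3K27me3 share of chromosome 18 was then near that of the other autosomes. All p-values behind these calls compare pooled libraries, not animals, and the shares are read only as a description, since the calls use the libraries by which the chromosomes were chosen.

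The 23 called H3K27me3 islands of chromosome 19 were gathered in 2 places, unlike the lead on chromosome 18. Of them, 9 lay between 7797600 and 8341199, with log2 ratios of 1.25 to 2.85 in the authors' deposited table, and 12 between 39556800 and 40077999, with 1.1 to 2.84. The first stretch holds the start of the organic anion transporter gene Slc22a26, and the island from 7853600 to 7880399 around it had 972 reads, 312 control reads and, in the authors' deposited table, a log2 ratio of 2.48. The second holds genes of the Cyp2c cluster of drug- and steroid-metabolising enzymes, and the island from 39950800 to 39970799 around the Cyp2c69 start had 497 reads, 99 control reads and, in the authors' deposited table, a log2 ratio of 2.32. Of the 23 islands, 22 had no female partner. The remaining 2 lay at 18438800 to 18449199 (1.03) and at 27396800 to 27419599 (1.08 in the authors' deposited table), the second in the bin with the largest male lead. Outside the 4 bins that begin at 7, 8, 39 and 40 Mb, H3K27me3 covered 12.1 Mb in the male and 11.9 Mb in the female list, with 28 bins ahead in males and 27 in females. The H3K9me3 lists had 0 kb in both sexes at 39 to 40 Mb.

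Called islands on chromosome 18 and those of H3K9me3 were scattered. The 8 male H3K27me3 calls of chromosome 18 lay in 7 bins, and the 24 and 22 male H3K9me3 calls of chromosomes 18 and 19 in 18 bins each. The highest ratio was that of an H3K9me3 island at 85876400 to 85886399 on chromosome 18, with log2 4.19 in the authors' deposited table. A male-only H3K27me3 island began at the same base and ran to 85905599, with log2 2.28 in the authors' deposited table. These islands stood apart in their control reads, at 71.0 and 31.6 per kb against 8.68 and 8.66 per kb over all male islands of chromosome 18, and the part of this in the ratio was not tested. A further called H3K27me3 island, 82390000 to 82391199, had 79.2 control reads per kb and, in the authors' deposited table, a ratio of log2 1.07. Other called H3K27me3 islands of the chromosome had usual control levels, such as 10432000 to 10439999 (log2 1.44 in the authors' deposited table, 8.13 control reads per kb) and 6999200 to 7007999 (1.16 in the authors' deposited table, 9.09 control reads per kb). The single female H3K27me3 call, at 22922000 to 22924399 on chromosome 19, had log2 -1.01 in the authors' deposited table.

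Gene starts on chromosome 19 fell in H3K27me3 islands of both lists for 58 of the 441 placed genes (13.2%). The male list alone covered the start for 20 and the female list alone for 20 (4.54% each). Here alone means that no island of the opposite list covered the start, so the island around it could still have a partner. On the other 17 autosomes the shares were 21.6%, 4.32% and 5.73% of 12157 placed genes. H3K9me3 islands held 6 starts in both lists, 11 in the male list alone and 3 in the female list alone (1.36%, 2.49% and 0.680%). All these shares were below those of the other 17 autosomes, 2.34%, 4.62% and 3.64%. Of 16 developmental regulators of chromosome 19 in the promoter table, 6 were placed, and 4 of these, Foxb2, Rorb, Sfrp5 and Tlx1, lay in H3K27me3 islands of both lists. Of all 441 placed genes, 343 lay outside H3K27me3 islands of either list. Of 16 genes of liver metabolism and secretion 15 were placed, and 14 lay outside such islands, the exception being Entpd1, an ectonucleotidase, in both. Both gene sets were drawn up with results of these data known.

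Among gene families of chromosome 19, single starts were covered by the male H3K27me3 list alone. Of 31 placed olfactory receptor genes, 3 (Olfr1437, Olfr1499 and Olfr1500) were covered by the male list alone, 1 (Olfr1441) by the female list alone and 27 by neither. Over all 441 placed genes these numbers were 20, 20 and 343. Of 4 placed Slc22a genes, Slc22a19 and Slc22a26 started under the male list alone, in islands with log2 ratios of 0.35 and 2.48 in the authors' deposited table. Of 6 placed Cyp2c genes Cyp2c69 alone did, and of 8 placed Ms4a genes, which encode 4-pass membrane proteins, Ms4a2 alone, with 0.28 in the authors' deposited table. Of the families, 6 of 13 Cyp2c, 4 of 10 Slc22a, 8 of 18 Ms4a and 31 of 59 olfactory receptor genes were placed. Gene starts on chromosome 18 were not analysed here.

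Read density within islands, which is not library depth, and control signal were checked on the same chromosomes. Islands held 26.2 H3K27me3 reads per kb on chromosome 18 in the male list and 27.4 in the female list, against 27.1 in males and 29.2 in females on the other autosomes. On chromosome 19 they held 27.7 in males and 30.5 in females, the highest of the 19 autosomes in both lists. H3K9me3 lists were shallower, with 9.0 reads per kb in males and 12.1 in females on chromosome 18, and 7.90 and 11.4 on chromosome 19. The other 17 autosomes had 8.67 in males and 11.2 in females, and the male value of chromosome 19 was the lowest of 19. Control reads in islands were 8.57 to 8.68 per kb for the male and 8.16 to 8.51 for the female lists on chromosomes 18 and 19, except for 8.08 in male H3K9me3 islands of chromosome 19, and 8.60 to 9.01 elsewhere. A separate IgG control library, from an earlier record with no age given, had 4.37 reads per kb on chromosome 18 and 4.14 on chromosome 19. These were ranks 12 and 18 of 19, against 4.50 over the other 17. Within chromosome 18 it had 4.60 reads per kb over sequence covered by the male H3K27me3 list alone, 4.02 over the female list alone and 4.14 over both, and on the other autosomes 5.05, 4.53 and 4.42. The GC content of IgG reads was 39.6%, 42.3% and 42.3% in those chromosome 18 classes, against 38.7% outside repressive islands. The part of these values in the lists' lengths was not tested.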

How the data were processed

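ChIP-seq of 6 histone marks in 8-week-old mouse livers was used as deposited. The submitters' processing notes name Bowtie, SICER 1.1 and genome build mm9. SICER windows of 400 bp with gaps of 2400 bp are given for both repressive marks, per the labels. Island starts and ends are positions per the file headers. Reads and control reads per island are raw counts deposited by the authors. Each island also has, per the file headers, a p-value, a fold over control (a ratio), and a log2 male over female ratio with its own p-value, and the sources used here do not give how the authors normalised the latter. Files were identical within a mark and sex, so 34 histone libraries gave 12 lists. Sex chromosomes were not analysed here.

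Covered bp were summed per list and 1 Mb bin with python 3.11.15, numpy 2.4.6, pandas 2.3.3 and scipy 1.17.1. On both chromosomes no island lies before 3 Mb, and bins from there on were used. Shares have exact Clopper-Pearson 95% intervals, for counting error only. No test between sexes was run, because pooled lists have no spread between animals. Overlap, binning and placement were tested on simulated data. Regions named in the text are, per mark and chromosome, the 3 bins with the largest lead of either list, the longest island of each list, up to 5 called islands per list and the longest run of bins. The members, lists and comparisons were chosen with earlier results of these data known.

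No genome or annotation of build mm9 was used. Gene starts were placed, a step added after the files had been seen, where a whole 35-base read among the 11201113 of the IgG library, on the same chromosome, occurred at a single place in the RefSeq promoters (GRCm38.p6). On chromosome 19, 496 of 1044 promoters (47.5%) matched, with 0 out of order and 0 with more than 1 implied place. Alternatives are bin size and offset, stricter lists, the longer list shortened to the length of the shorter, islands of at least 5 kb, reads in place of length, other overlap limits, other call rules, islands with at most 20 control reads per kb, and leaving out 4 bins of chromosome 19.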

Additional observations from a re-analysis of the deposited data

How the results depend on the processing

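Of 102 alternative values for 24 results, 73 did not turn direction and stayed within the counting interval or, for counts of calls, within 1.5 times the main value. That interval took islands for length ratios, and bins for bin shares, as independent units, which they are not. It is therefore a rough guide only. With islands at or above the median fold over control, the log2 male over female length fell to 0.47 for H3K27me3 on chromosome 18, turned to -0.10 on chromosome 19 and was 0.48 for H3K9me3 on chromosome 19. The male share of bins was then 73.2%, 43.6%, 64.6% and 57.5% for H3K27me3 on chromosomes 18 and 19 and H3K9me3 on chromosomes 18 and 19. With the longer list shortened to the length of the shorter, the H3K9me3 log2 ratios were 1.39 on chromosome 18 and 1.47 on chromosome 19, the male share of bins on chromosome 19 was 92.2%, and H3K9me3 islands of chromosome 18 without a partner were 67.4% in males and 32.6% in females.

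The H3K27me3 lead of males over bins of chromosome 19 also turned to 47.7% with bins of 500 kb and 47.5% with bins shifted by 500 kb. For H3K9me3 there it was 86.2% with bins of 2 Mb and 89.2% among bins differing by at least 10 kb. Where a partner had to cover 50% of an island, those without one were 52.6% in males and 20.1% in females for H3K27me3 on chromosome 18, 33.6% and 28.3% on chromosome 19, 69.3% and 49.0% for H3K9me3 on chromosome 18, and 80.6% of males on chromosome 19.

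With the deposited ratios centred on islands shared by both lists, male calls numbered 4 (H3K27me3) and 14 (H3K9me3) on chromosome 18 and 8 (H3K9me3) on chromosome 19, and the female H3K27me3 call of chromosome 19 was lost (0). By this rule 0.573% of H3K27me3 and 1.82% of H3K9me3 male islands elsewhere were called. Without a p limit the female H3K9me3 calls of chromosome 19 were 5. Leaving out 4 bins of chromosome 19, chosen after seeing the data, left 2 of its 23 male H3K27me3 calls. The cause of these changes was not tested. No paired analysis was possible because the lists pool all libraries of a sex, and for the same reason no library could be left out. With 2 or 3 libraries pooled per list, no difference here is separated from variation between animals. H3K9me3 islands had the fewest reads, and their edges and partners are the least certain.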

Other observations

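H3K9me3 and H3K27me3 islands shared a larger part of their length in the male lists, though little more of the H3K9me3 length on chromosome 19. Such shares depend on the length each list covers, by which the chromosomes were chosen. No closer link between the marks in males is read from them. Of the H3K9me3 length on chromosome 18, 47.2% lay in H3K27me3 islands in the male lists and 26.6% in the female lists, against 49.8% and 43.3% on the other autosomes. On chromosome 19 the shares were 51.5% in males and 49.5% in females. Of the H3K27me3 length, 14.4% lay in H3K9me3 islands in males and 7.10% in females on chromosome 18, and 12.4% and 5.96% on chromosome 19, against 15.6% and 17% elsewhere.

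Peaks of H3K4me3, H3K4me1 and H3K27ac overlapped H3K27me3 islands in a smaller share on both chromosomes than on the other autosomes, with no test of the difference. These shares too depend on the length the islands cover, by which the chromosomes were chosen. H3K27me3 covered 16% of chromosome 18 in males and 9.97% in females, and 21.0% and 20.2% of chromosome 19, against 23.2% and 24.1% elsewhere. No trait of the peaks is read from the shares. Of H3K4me3 peaks, 12.4% in males and 12.9% in females did so on chromosome 18 and 12.5% and 13.9% on chromosome 19, against 14.6% and 16.8% elsewhere. For H3K4me1 the shares were 9.26% in males and 8.43% in females on chromosome 18 and 11.5% and 11.9% on chromosome 19, against 12.2% and 14.8%. Of H3K27ac peaks on chromosome 18, 5.26% in males and 4.89% in females overlapped an H3K27me3 island, and on chromosome 19 6.1% and 4.84%, against 7.05% and 7.11%.

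Male-only H3K27me3 islands of chromosome 18 held fewer peaks of other marks than the wider male islands with a partner. H3K4me1 peaks lay in 29 of the 247 male-only islands (11.7%) and in 122 of the 327 with a partner (37.3%), and H3K4me3 peaks in 5 (2.02%) and 46 (14.1%). H3K9me3 islands of the male list overlapped 30 (12.1%) and 119 (36.4%), and H3K27ac peaks 13 (5.26%) and 45 (13.8%). On chromosome 19 the shares in male-only islands and in those with a partner were 21.6% and 42.2% for H3K4me1, 9.48% and 14.7% for H3K4me3 and 4.31% and 29.9% for H3K9me3. H3K27ac peaks there lay in 19 of 116 male-only H3K27me3 islands (16.4%) and in 52 of 348 with a partner (14.9%), and H3K36me3 islands in 11 (9.48%) and 29 (8.33%), so these marks were not rarer in the male-only islands.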
